A study of Bos taurus with 18 samples.

Results

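The growth factors TGFB1, VEGFA and FGF2, the receptor IGF1R and the insulin-like growth factor (IGF) binding proteins IGFBP2, IGFBP3, IGFBP4 and IGFBP7 were measured in female and male bovine blastocysts at day 7. The genes were chosen by name, and every probe set whose only gene in GEO's platform annotation was one of them was kept. All 8 genes were found, with 12 of the 24016 probe sets tested. VEGFA, IGF1R, IGFBP3 and FGF2 had 2 probe sets each, numbered here by their mean level so that probe set 1 is the brighter. TGFB1, IGFBP2, IGFBP4 and IGFBP7 had 1. The sets of 1 gene share a transcript and are not replicates of each other. None of the 8 genes lies on a sex chromosome in the gene table used here for names.

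Embryos of mixed breed were produced in vitro with sperm sorted for sex from 3 bulls, and were frozen 7 days after insemination. The 6 groups were female and male embryos of bull 1, of bull 2 and of bull 3, with 3 arrays a group and a pool of 60 blastocysts of 1 sex and 1 sire behind each array. Whether pools of 1 group stem from different rounds of embryo production is not in the labels, so the p-values cover only the spread between these pools, which may be technical. Each bull is a single sire, and a difference between bulls cannot be told apart from a production or scan batch. Values are log2 expression values as the authors deposited them, a difference of 1 being a doubling, and a level is not compared between probe sets because each has its own probes. In pooled RNA, fewer cells of a type and less RNA per cell cannot be told apart.

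TGFB1 encodes transforming growth factor beta 1, which is secreted in a latent form and signals through the receptors TGFBR2 and TGFBR1 to SMAD proteins. VEGFA is a secreted factor known for vessel growth, binds KDR and FLT1, and is a known target of the hypoxia factor HIF1A with its partner ARNT. IGF1R is the receptor kinase for IGF1 and IGF2, and the IGFBPs are secreted proteins that hold these ligands outside the cell and can limit or carry them. FGF2, basic fibroblast growth factor, is known in cattle as a uterine signal that raises interferon tau output of the trophectoderm, the outer layer of the blastocyst.

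TGFB1 was higher in females in every bull, and VEGFA was higher in females in both of its probe sets, while no other member differed by sex in the test. The 3 called probe sets of 12 were all higher in females, and none was higher in males. A probe set is called here at a Benjamini-Hochberg adjusted p under 0.05 in limma's moderated test over all 24016. Of all probe sets 15.6% were called for sex, 8.12% as higher in females and 7.47% as higher in males. The members' median difference, female minus male, was 0.10 log2, against -0.03 log2 over all probe sets. The members' median absolute difference was 0.17 log2 against 0.09, and 0.10 over the brightest probe set of each gene. On that brightest set TGFB1 and VEGFA were the only called genes of the 8, beside 20.8% of all 9155 genes. The members were picked with results of these data known, so these counts describe them and do not set them apart.

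On the TGFB1 probe set, the female arrays of bull 1 read 5.67, 5.39 and 5.89 and the male arrays 5.05, 5.21 and 4.83. In bull 2 the female arrays read 5.37, 5.47 and 5.28 and the male arrays 4.94, 4.68 and 4.84. In bull 3 the female arrays read 6.02, 5.88 and 5.73 and the male arrays 5.25, 5.23 and 5.39. Every female array thus lay above every male array of the same bull. With 3 arrays a group, a separation within a single bull can easily arise without a sex difference. The share of all probe sets with such a separation was not counted, for TGFB1 or for the members below. Across bulls the sexes overlapped, since the lowest female value, 5.28 in bull 2, lay below the highest male value, 5.39 in bull 3. The sexes did not overlap over all 18 arrays at 2.92% of probe sets, and no member was among them.

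Females averaged 5.63 ± 0.27 and males 5.05 ± 0.24 (SD, n = 9 arrays each). The difference was 0.59 log2 (SE 0.07, 95% interval 0.43 to 0.74), or 1.5-fold, with an adjusted p of 1.77e-05 in limma's test. An exact permutation of sex within bulls, two-sided, gave p = 0.00025, the smallest that its 8000 assignments can give. Among the bulls the differences were 0.62, 0.56 and 0.59 log2 for bulls 1, 2 and 3, each called within its bull (adjusted p = 0.00855, 0.0194 and 0.0122). Within bulls, 4.2%, 3.13% and 4.18% of all probe sets were called in the same order, and TGFB1 was the only member. These background counts depended on single arrays, running from 625 to 1240 in bull 1 (1008 with all arrays), from 422 to 956 in bull 2 (752) and from 465 to 1317 in bull 3 (1004). The call in bull 1 was lost without female replicate 3 (adjusted p = 0.053). That in bull 2 was lost without female replicate 1 (0.0661), female replicate 2 (0.107), male replicate 2 (0.11) or male replicate 3 (0.0513), and that in bull 3 without female replicate 1 (0.0647). The difference over all bulls kept its call in all 3 fits without a bull and in all 18 fits without an array, where it ran from 0.547 to 0.63 log2.

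The order of the 6 groups for TGFB1 followed sex first and bull second. Female embryos of bull 3 had the highest mean, 5.88 ± 0.15 (SD, n = 3), followed by females of bull 1 at 5.65 ± 0.25 and of bull 2 at 5.38 ± 0.10. Males of bull 3 stood at 5.29 ± 0.09, of bull 1 at 5.03 ± 0.19 and of bull 2 at 4.82 ± 0.13. Neighbours in this order had overlapping arrays, apart from males of bulls 3 and 1, whose nearest values were 5.23 and 5.21. Bulls thus ranked 3, 1 and 2 within each sex.

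VEGFA had smaller estimated sex differences than TGFB1, though the genes were not tested against each other. Its probe set 1 read 8.94, 9.12 and 9.15 in females of bull 1, 9.14, 9.07 and 9.24 in females of bull 2 and 9.10, 9.16 and 9.06 in females of bull 3. In males it read 8.49, 9.03 and 9.03 in bull 1, 8.67, 9.03 and 8.60 in bull 2 and 8.78, 8.88 and 8.84 in bull 3. The sexes were apart in bulls 2 and 3 and overlapped in bull 1, where 2 male arrays at 9.03 exceeded 1 female array. The female arrays lay close together, with an SD of 0.08 against 0.20 in males.

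The mean of VEGFA probe set 1 was 9.11 in females and 8.82 in males, a difference of 0.29 log2 (SE 0.08, 95% interval 0.13 to 0.45), or 1.22-fold, with an adjusted p of 0.0133. Its probe set 2 averaged 8.11 ± 0.14 in females and 7.78 ± 0.22 in males (n = 9), a difference of 0.33 log2 (SE 0.08, 95% interval 0.17 to 0.50), or 1.26-fold, with an adjusted p of 0.00593. Exact permutation of sex within bulls, two-sided, gave p = 0.0015 and p = 0.00075 for these sets. Both had positive differences in all bulls, 0.22, 0.39 and 0.27 log2 for set 1 and 0.39, 0.35 and 0.26 log2 for set 2 in bulls 1, 2 and 3. Neither passed within a single bull. Set 1 lost its call without bull 2 (adjusted p = 0.151) and without bull 3 (0.0992), and set 2 without bull 2 (0.0713) and without the 4 arrays of widest spread (0.0509). Across the 18 arrays, which carry both sets and may have been normalised together, the sets correlated at Pearson's r = 0.66 and Spearman's rho = 0.76.

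**Figure D1:**
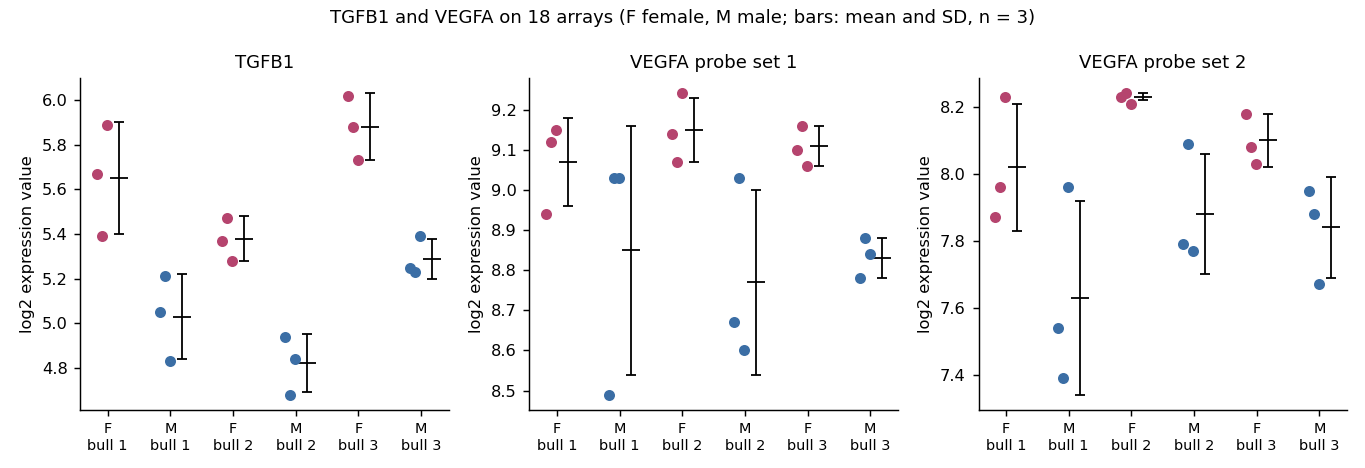
Log2 expression value (vertical axes) of the probe sets of TGFB1 and VEGFA in the 6 groups of sex and bull (horizontal axes); each point is 1 array, red for females (F) and blue for males (M), and the bars give the mean and SD of 3 arrays. For TGFB1 every female array lies above the male arrays of its bull, while for VEGFA probe set 1 the sexes overlap in bull 1.

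IGF1R showed no called difference, and its probe sets pointed in opposite directions. Probe set 1 ran from 5.31 to 5.65 in females with a median of 5.45, and from 5.01 to 5.72 in males with a median of 5.41. The difference was 0.07 log2 (95% interval -0.09 to 0.23, adjusted p = 0.595). Probe set 2 ran from 4.85 to 5.33 in females (median 5.05) and from 4.98 to 5.37 in males (median 5.20), a difference of -0.14 log2 (95% interval -0.29 to 0.004, adjusted p = 0.201). The sexes overlapped on both sets. Over 18 arrays the sets were nearly unrelated (r = 0.16, rho = 0.02), so the data do not fix 1 pattern for this receptor. In males of bull 1, set 1 spanned 5.01 to 5.72, wider than all other groups together, which lay between 5.24 and 5.65.

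FGF2 was dim. Both probe sets lay below the array median on 18 of 18 arrays. Set 1 ran from 2.71 to 3.12 in females and from 2.82 to 3.16 in males, a difference of -0.06 log2 (95% interval -0.21 to 0.08, adjusted p = 0.623). Set 2 ran from 2.44 to 3.12 in females with a median of 2.86, and from 2.31 to 3.11 in males with a median of 2.52, a difference of 0.22 log2 (95% interval 0.02 to 0.43, adjusted p = 0.132). The set 2 differences in bulls 1, 2 and 3 were 0.31, 0.37 and -0.01 log2. It passed without female bull 3 replicate 2 (adjusted p = 0.0285), the lowest female array at 2.44, as well as without bull 3 (0.034). Its sets correlated at r = -0.16 and rho = -0.20 over 18 arrays. The 2 sets thus give no common pattern for FGF2.

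The IGF binding proteins did not differ by sex in the test. IGFBP2, a binding protein with a preference for IGF2, ran from 9.35 to 9.95 in females (median 9.76) and from 9.46 to 9.96 in males (median 9.74). Its difference of -0.06 log2 had a 95% interval of -0.20 to 0.09 (adjusted p = 0.674), which leaves no room for a change of the size seen for TGFB1 in either direction. IGFBP4, a binding protein cleaved by the protease PAPPA, ran from 5.17 to 5.78 in females (median 5.51) and from 4.95 to 6.13 in males (median 5.59), with a difference of -0.14 log2 (95% interval -0.37 to 0.09, adjusted p = 0.471). The IGFBP4 differences in bulls 1, 2 and 3 were -0.20, 0.10 and -0.32 log2. Without the 4 arrays of widest spread IGFBP4 was called as higher in males, at -0.292 log2 (adjusted p = 0.0437). Males of bull 2 alone spanned 4.95, 5.59 and 5.88 for this gene, and the array at 4.95 is among those 4.

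IGFBP3, the main carrier of IGFs in blood, did not differ by sex in the test on either probe set. Set 1 ran from 8.68 to 8.98 in females (median 8.88) and from 8.0 to 8.84 in males (median 8.76). Its difference was 0.19 log2 (SE 0.09, 95% interval 0.00 to 0.37) with an adjusted p of 0.178. An exact permutation of sex within bulls, two-sided, gave p = 0.0198, which is not adjusted over probe sets and makes no call. In bulls 1 and 2 every female array lay above every male array, at 8.88, 8.82 and 8.89 against 8.66, 8.46 and 8.76 and at 8.98, 8.95 and 8.89 against 8.74, 8.76 and 8.83. In bull 3 the order turned for 2 of 3 arrays, with females at 8.68, 8.74 and 8.69 and males at 8.77, 8.84 and 8.0. The difference in bull 3, 0.17 log2, therefore came from male replicate 3 at 8.0, an array of wide spread. Set 2 differed by 0.12 log2 (95% interval -0.02 to 0.26, adjusted p = 0.275), and the sets correlated at r = 0.71 and rho = 0.36 over 18 arrays.

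**Figure D2:**
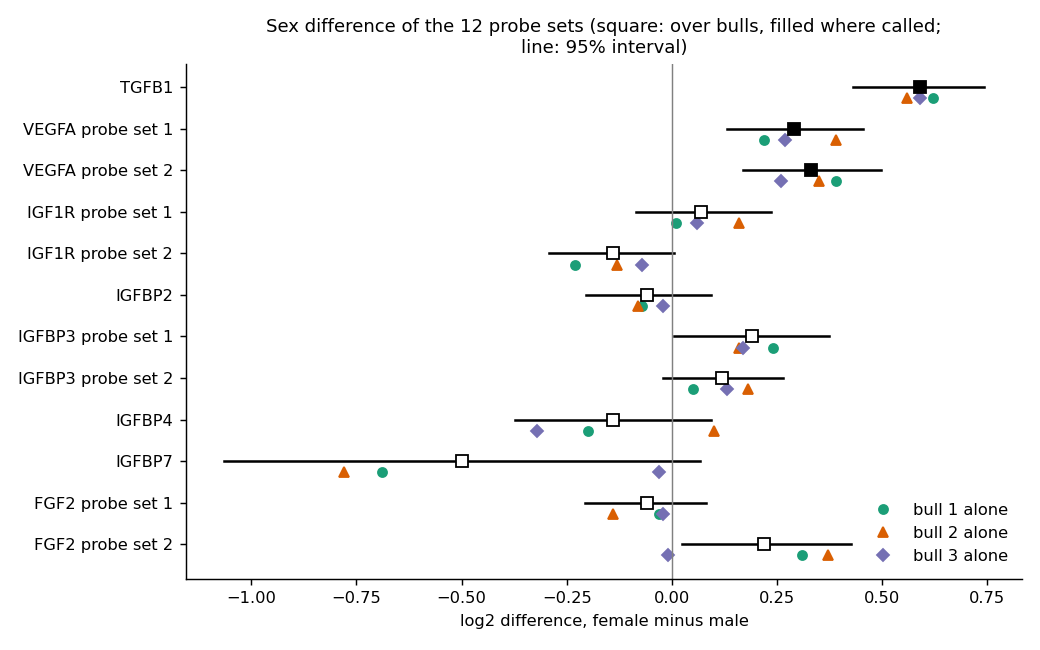
Log2 difference, female minus male (horizontal axis), of each of the 12 probe sets (vertical axis); squares give the difference over bulls, filled where called, lines its 95% interval, and small symbols the difference in bull 1, 2 or 3 alone. TGFB1 at 0.59 and the VEGFA sets at 0.29 and 0.33 are the filled squares, and IGFBP7 has the widest interval.

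IGFBP7, a secreted protein of the extracellular matrix that binds IGFs only weakly, varied more from pool to pool than any other member. Its arrays spanned 2.70 log2, against 0.45 to 1.35 log2 for the other 11 probe sets. The SD between arrays of a group was 0.70 log2, a value larger than that of 99.9% of all probe sets. Females of bull 1 read 6.60, 6.64 and 6.27 and males 7.03, 6.80 and 7.74. Females of bull 2 read 7.99, 6.62 and 8.02 and males 8.73, 7.26 and 8.97. Females of bull 3 read 7.91, 7.28 and 6.61 and males 6.96, 6.68 and 8.26. Both females and males of bull 2 held arrays more than 1 log2 apart, as did both sexes of bull 3, and in bull 2 the array numbered 2 was the lowest of both sexes.

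Males averaged 7.60 ± 0.86 and females 7.10 ± 0.70 for IGFBP7 (SD, n = 9). The difference of -0.50 log2 had a 95% interval of -1.06 to 0.07 and did not pass (adjusted p = 0.256). Sexes were apart in bull 1, where the difference was -0.69 log2, and overlapped in bulls 2 (-0.78) and 3 (-0.03). Bull 2 averaged 7.93 ± 0.88, bull 3 7.28 ± 0.67 and bull 1 6.84 ± 0.50 (SD, n = 6). The gap of 1.08 log2 between bulls 2 and 1, or 2.12-fold, missed the threshold (adjusted p = 0.0999), and passed without male bull 2 replicate 2 (1.35 log2, adjusted p = 0.0384).

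The pools high in IGFBP7 were also those high in some of the markers listed for stroma, but not in others. Stroma is connective tissue and is not part of a blastocyst. Of its list, FN1 read high in both sexes, at 13.07 in females and 13.04 in males. Of the 11 stroma markers listed, all were measured. VIM, the intermediate filament protein vimentin, read 3.28 and 3.82 in the males of bull 1 whose IGFBP7 was 7.03 and 6.80, and 6.23 in the male with 7.74. In bull 2 VIM read 5.85, 4.42 and 5.74 in females and 6.45, 4.45 and 6.76 in males, with the low array of each sex again the one numbered 2. POSTN, the matrix protein periostin, read 5.92, 4.15 and 6.56 in those females and 6.58, 4.70 and 6.30 in those males.

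Over 18 arrays IGFBP7 correlated with VIM at r = 0.91 (rho = 0.80) and with POSTN at r = 0.90 (rho = 0.86). This describes arrays that may have been normalised together. As deviations from the means of the 6 groups these were 0.86 and 0.90, and without the 2 arrays farthest from the IGFBP7 median they were 0.85 and 0.87. The collagen COL3A1 (0.69), LUM (0.72) and DCN (0.56), both small matrix proteoglycans, had positive values, while COL1A1 (-0.29), COL1A2 (-0.06), FN1 (-0.18), SPARC (-0.15), ACTA2 (-0.40) and TAGLN (-0.12) did not. The stroma list as a whole, summed over its log2 values, ran from 71.5 to 78.3 in bull 1, from 73.8 to 82.0 in bull 2 and from 70.4 to 77.8 in bull 3. The 10 cumulus and granulosa markers correlated with IGFBP7 at r between -0.60 (CYP19A1, the aromatase) and 0.24 (FSHR, the receptor for follicle stimulating hormone), with AMH at -0.44. The part of stroma and of these cells in the IGFBP7 values was not tested.

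By the rule of highest Pearson's r among 9154 other genes, the genes most like IGFBP7 were IFI6 (r = 0.94, rho = 0.90), PLOD2 (r = 0.93, rho = 0.87) and ISG15 (r = 0.91, rho = 0.85). IFI6 and ISG15 are interferon-stimulated genes, and PLOD2 is an enzyme that modifies collagen. IFI6 itself spanned 3.02 log2, from 3.89 in a female pool of bull 1 to 6.91 in a male pool of bull 2. None of the 3 was called for sex (adjusted p = 0.387, 0.124 and 0.629). Their likeness to IGFBP7 held as deviations from group means, at r = 0.95, 0.87 and 0.89.

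**Figure D3:**
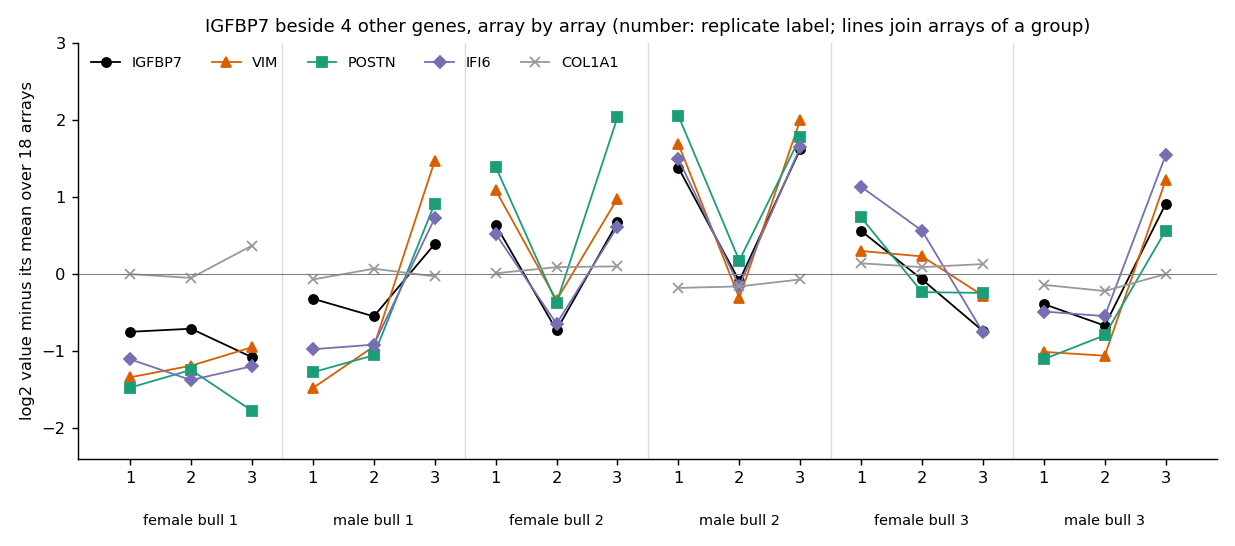
Log2 value minus its mean over 18 arrays (vertical axis) of IGFBP7, VIM, POSTN, IFI6 and COL1A1 on each array (horizontal axis, by group, with the replicate number of the labels). Lines join arrays of a group to guide the eye. The first 4 genes are high and low on much the same arrays, such as the low array numbered 2 in both sexes of bull 2. COL1A1 stays near 0. ACTA2 and TAGLN, also on the stroma list, are not drawn (r = -0.40 and -0.12 with IGFBP7).

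The spread of each member was split into parts for sex, bull, their combination and arrays of the same group. For TGFB1, sex held 60.3% of the sum of squares, bull 27.6% and arrays within groups 12%. For the VEGFA sets sex held 51.0% and 48.0%, with 46.0% and 34.9% between arrays of a group. IGFBP2 had the largest share for bull among the members, 42.8%, with 2.9% for sex and 53.6% between arrays of a group. For the other 8 sets, those of IGF1R, IGFBP3, IGFBP4, IGFBP7 and FGF2, arrays within groups held 52.9% to 88.2%. For IGFBP7, bull held 32.5%. Arrays within groups have 12 degrees of freedom, more than sex or bull, so a large share there is usual even with no effect. These shares describe 18 arrays and carry no test.

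**Figure D4:**
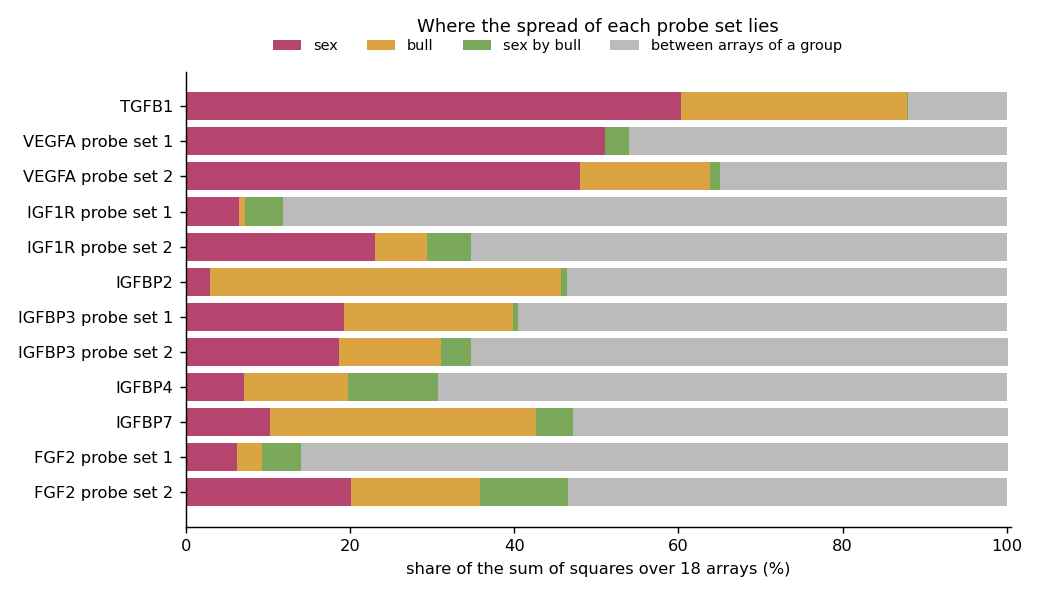
Share of the sum of squares over 18 arrays in percent (horizontal axis) that lies with sex, bull, sex by bull and arrays of the same group, for each of the 12 probe sets (vertical axis). Sex holds 60.3% for TGFB1 and bull holds 42.8% for IGFBP2, and arrays within groups hold the largest part for IGFBP2 (53.6%) and for the sets of IGF1R, IGFBP3, IGFBP4, IGFBP7 and FGF2. Arrays within groups also have the most degrees of freedom (12).

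The sex difference of no member was called as differing between bulls. The interaction test called 0 of 24016 probe sets (0%) in limma, and 0 without moderation of the variance, with 656 (2.73%) at an unadjusted p under 0.05 and no member among them. This 2.73% lies below the share that chance alone gives at that threshold. With 3 arrays a group the test can miss such differences, so its 0 calls do not show that sex differences were alike in all bulls. The bulls themselves differed at TGFB1 alone among the members. The test over all bulls called 6.39% of probe sets and gave TGFB1 an adjusted p of 0.0122. TGFB1 averaged 5.58 ± 0.34 in bull 3, 5.34 ± 0.39 in bull 1 and 5.10 ± 0.32 in bull 2 (SD, n = 6, both sexes pooled). Bull 3 exceeded bull 2 by 0.49 log2 (SE 0.09, 95% interval 0.30 to 0.68), or 1.4-fold, with an adjusted p of 0.00665, in a comparison where 3.74% of probe sets were called. Its other pairs did not pass, at -0.24 log2 for bull 2 minus bull 1 (adjusted p = 0.18; 1.52% of probe sets called) and 0.24 log2 for bull 3 minus bull 1 (adjusted p = 0.14; 3.53% called). The counts behind these shares were unstable. Without 1 array they ran from 133 to 607 for bull 2 minus bull 1 (364 with all arrays), from 271 to 1594 for bull 3 minus bull 1 (848) and from 384 to 1337 for bull 3 minus bull 2 (897).

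An index that may reflect RNA integrity or RNA amplification differed in median between the bulls, with overlapping ranges. It was taken as the 5′ minus the 3′ probe signal, averaged over 3 control transcripts. It had a median of -0.593 log2 in bull 3 (range -1.268 to -0.359), -0.148 in bull 1 (-0.441 to 0.447) and -0.253 in bull 2 (-0.381 to -0.129). With this index as a covariate TGFB1 still passed, with 0.534 log2 for bull 3 minus bull 2 (adjusted p = 0.0465) and an adjusted p of 0.0472 over the bulls. The count over all probe sets fell to 12 for bull 3 minus bull 1 and to 143 for bull 3 minus bull 2 in that fit. IGFBP2 was lower in bull 1, at 9.56 ± 0.17 against 9.81 ± 0.11 in bull 2 and 9.77 ± 0.13 in bull 3 (SD, n = 6), but did not pass over the bulls (adjusted p = 0.137). Their ranges overlapped, with bull 1 reaching 9.77 and bull 2 beginning at 9.69.

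Around the members, 111 further genes of the same pathways were listed, of which 72 were measured. On the leading, that is brightest, probe set of each gene, 7 were higher in females and 8 in males, 20.8% together, and of the leading probe sets of all 9155 genes 20.8% were called (11.5% higher in females and 9.31% in males). The list's median difference was -0.01 log2 and that of all genes was -0.01. Over the bulls 3 of the 72 were called, with 6.44% of all leading probe sets, and none was of the IGF, TGF-beta, VEGF or FGF lists.

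In the IGF system the ligands and the other receptors did not pass, with IGF1 at -0.01 log2 (adjusted p = 0.941), IGF2 at -0.10 (0.464), the insulin receptor INSR at -0.11 (0.347) and IGF2R, which clears IGF2, at -0.08 (0.453). One of the 5 INSR probe sets, not the leading one, was higher in males. Of 15 measured genes, 1 was higher in females and 1 in males. IGFBP6, the binding protein with the strongest preference for IGF2, stood at 7.10 ± 0.20 in females and 6.27 ± 0.26 in males (SD, n = 9), a 1.77-fold difference of 0.83 log2 (SE 0.10, adjusted p = 1.04e-05). The IGFBP6 differences were 1.04, 0.67 and 0.76 log2 in bulls 1, 2 and 3. IGFBP1 to IGFBP7 were all measured, and IGFBP6 was the only one called for sex on its leading probe set. IGFBP1 at -0.18 log2 (adjusted p = 0.0679) and IGFBP5 at -0.01 (0.948) did not pass. IGF2BP3, which is named for binding IGF2 messenger RNA, was higher in males, with a difference of -0.29 log2 (adjusted p = 0.012).

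In TGF-beta signalling 1 of 14 measured genes was called on its leading probe set. Of the 6 probe sets of THBS1, 1 other than the leading was higher in males. The ligands TGFB2 (-0.17 log2, adjusted p = 0.235) and TGFB3 (0.12, adjusted p = 0.32) did not follow TGFB1 past the threshold. Neither did the receptors TGFBR1 (-0.08, adjusted p = 0.485) and TGFBR2 (0.25, adjusted p = 0.0591). TGFB3 (2.85 in females, 2.73 in males) and TGFBR1 (3.58 and 3.66) were dim, so a difference there may not show. TGFBI, a matrix protein named for its induction by TGF-beta, was higher in females at 9.81 ± 0.21 against 9.35 ± 0.38 (1.37-fold, adjusted p = 0.016). CCN2, a matricellular protein listed among the other growth factors and a known TGF-beta target, was higher in females at 10.85 ± 0.13 against 10.36 ± 0.16 (1.41-fold, adjusted p = 2.19e-05), by 0.49, 0.46 and 0.53 log2 in bulls 1, 2 and 3.

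Genes around VEGFA moved in both directions, with 2 of 13 higher in females and 2 in males. HIF1A was higher in females at 9.74 ± 0.06 against 9.41 ± 0.10 (SD, n = 9; 1.26-fold, adjusted p = 0.000238), and its partner ARNT at 6.06 ± 0.08 against 5.72 ± 0.10 (1.27-fold, adjusted p = 0.000336). EGLN1, the prolyl hydroxylase that marks HIF1A for breakdown, was higher in males by 1.17-fold (adjusted p = 0.0079), on 2 of its 3 probe sets. VEGFB, a relative of VEGFA that binds FLT1, was higher in males at 8.21 ± 0.18 against 7.77 ± 0.17 (1.36-fold, adjusted p = 0.000778), the direction opposite to VEGFA. KDR, FLT1 and NRP1, the receptors of VEGFA, had values of 0.00, -0.12 and 0.12 log2 and did not pass (adjusted p = 0.998, 0.23 and 0.297). All were dim, with female means of 3.10, 3.24 and 2.88 and male means of 3.10, 3.36 and 2.76. The lowest array median was 5.33, so a difference in these receptors may not show.

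In FGF signalling 2 of 10 measured genes were called, both higher in males. SPRY2, an inhibitor of FGF receptor signalling, differed by -0.30 log2 (1.24-fold, adjusted p = 0.00737). FGF1 differed by -0.22 log2 on its leading probe set (adjusted p = 0.0439), but of its 12 probe sets 1 was higher in females and 2 in males. The FGF receptors did not pass, with FGFR4 at 0.18 log2 (adjusted p = 0.088). Of the other growth factors, BMP2 (0.37 log2, adjusted p = 0.0134) and BMP7 (0.30, adjusted p = 0.00824), both bone morphogenetic proteins, were higher in females beside CCN2, 3 of 10 in all. Of the other receptors 3 of 10 were higher in males. They were BMPR1A, a receptor for bone morphogenetic proteins (-0.33 log2, adjusted p = 0.00164), MET, the receptor for HGF (-0.36, adjusted p = 0.00409), and the activin receptor ACVR2B (-0.22, adjusted p = 0.0259). BMP7 and BMPR1A have 2 probe sets each, of which only the leading one was called.

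On their leading probe sets, calls of IGFBP6, HIF1A, ARNT, VEGFB, CCN2 and BMPR1A held in every alternative that tested them. IGF2BP3, TGFBI, EGLN1, FGF1, SPRY2, BMP2, BMP7, MET and ACVR2B lost theirs without 1 or more of the bulls (adjusted p = 0.0583 to 0.268). Leaving out a single array ended the call of FGF1 in 13 of 18 cases (0.0521 to 0.0966) and that of ACVR2B in 4, those without female bull 1 replicate 1, female bull 2 replicate 3, female bull 3 replicate 2 or male bull 3 replicate 1 (0.0506 to 0.063). Without the 4 arrays of widest spread FGF1 (-0.13 log2, adjusted p = 0.138) and ACVR2B (0.0679) lost their calls, and without moderation of the variance TGFBI (0.054) and FGF1 (0.0606) did.

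**Figure D5:**
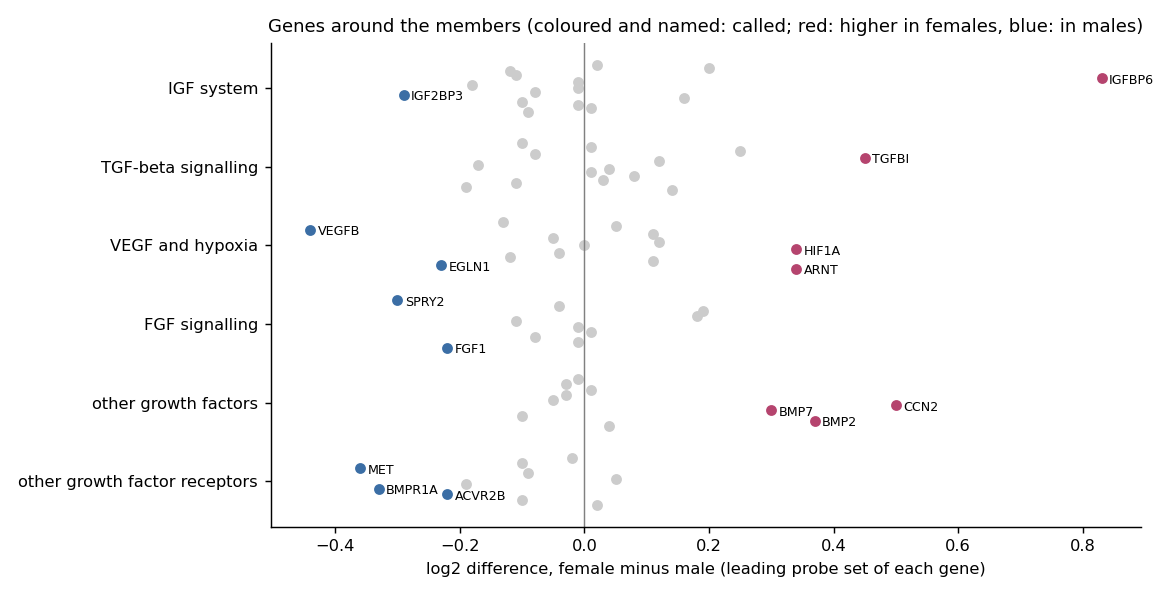
Log2 difference, female minus male, of the leading probe set of each measured gene (horizontal axis) in 6 lists around the members (vertical axis); each point is 1 gene, red where called as higher in females, blue where called as higher in males and grey otherwise. IGFBP6 at 0.83 lies farthest to the right, and the receptors called in the lowest list all lie left of 0.

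The genes whose levels were most like TGFB1 over 18 arrays were CHCHD7, a mitochondrial protein, PLP2, an X-linked membrane protein, and LGALS9, the lectin galectin 9, each with r = 0.93 (rho = 0.94, 0.92 and 0.92). Each was called as higher in females, by 0.47, 0.71 and 0.57 log2, and as deviations from group means their r with TGFB1 was 0.65, 0.73 and 0.52. Those most like VEGFA were the tubulin TUBB (r = 0.82, rho = 0.79), the kinase PIM2 (r = 0.81, rho = 0.82) and OFD1 (r = 0.80, rho = 0.90), all called as higher in females, PIM2 and OFD1 being X-linked. For IGFBP4 the first was PDGFRA, the receptor for platelet-derived growth factor (r = 0.76, rho = 0.73), and for IGFBP2 it was THAP11 (r = 0.84, rho = 0.86). IGF1R was most like CYB561A3 (r = 0.89, rho = 0.69) and FGF2 most like ART3 (r = 0.82, rho = 0.80). IGFBP3 was most like MED17 (r = 0.87, rho = 0.60), and without its 2 farthest arrays that r was 0.39. Among the members themselves, TGFB1 and VEGFA had the highest correlation (r = 0.51, rho = 0.60), and the other 27 pairs lay between -0.41 and 0.38. All of these were picked as the most alike and are descriptions.

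Markers of the blastocyst's own cells had female means from 4.68 (ASCL2) to 14.04 (KRT18) for trophectoderm, from 5.64 (SPP1) to 12 (KLF4) for inner cell mass and from 4.03 (HNF4A) to 12.43 (GATA6) for primitive endoderm. Those of other cells ran from 2.40 (PTX3) to 9.85 (HAS2) for cumulus and granulosa, from 4.08 (COL3A1) to 13.07 (FN1) for stroma and from 2.80 (PTPRC) to 8.35 (HBB) for blood. Each probe set has its own scale, so these ranges do not rank the cell types. Beside 20.8% of all leading probe sets called for sex, 1 of 5 in trophectoderm was higher in females and 2 in males, 1 of 4 in inner cell mass in females, and 1 of 6 in primitive endoderm in each direction. Of markers of other cells, 2 of 10 for cumulus and granulosa cells were higher in females, 4 of 11 for stroma in females and 1 in males, and 2 of 5 for blood in females and 1 in males. Their summed log2 levels ran from 55.1 to 58.3 in females and 54.3 to 56.6 in males for cumulus and granulosa, from 73.8 to 82.0 and 70.4 to 81.8 for stroma, and from 23.4 to 26.2 and 23.4 to 25.4 for blood. Array values have no true 0. The part of these cells in the values of TGFB1 and VEGFA was not tested.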

How the data were processed

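Per the labels, 18 pools of blastocysts each gave 50 ng of RNA for amplification before Affymetrix bovine arrays were run. The authors deposited log2 values, 1 per probe set and array. RMA and Partek 6.4 are named, with no role, in the submitters' processing notes. That the scale is log2 follows from the range of values (1.89 to 14.15, array medians 5.33 to 5.49). Where arrays are drawn to a common distribution, as RMA usually does, a shift of all transcripts cannot be seen. Arrays give no read depth, and their number limits the precision.

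Array controls (112) were left out of 24128 probe sets. GEO's platform annotation gives 1 gene for 13292 of the other 24016, several for 86 and no gene for 10638. A RefSeq table (assembly ARS-UCD2.0) supplied current symbols for 13263 by gene ID. The fit was made in limma (version 3.58.1, under R version 4.3.3) with 1 mean for each of the 6 groups and 12 residual degrees of freedom, with Benjamini-Hochberg adjustment over all probe sets. Arrays of widest spread (4) are those whose deviations from probe set medians have an interquartile range over 0.25. The steps were tested on simulated data. Figures were drawn with matplotlib 3.10.9.

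All probe sets of the members are given. Pathway genes were named if called for sex, if they bind a member, or as up to 4 more per list by p, and 3 alike genes were taken per member. Members and lists were chosen with earlier results of these data known. Alternatives were array weights, an intensity trend, quantile normalization once more, no moderation, a limit to the brighter 50%, leaving out arrays or bulls, the 5′ to 3′ index, the sample number as a block, an additive model, bull as the replicate, exact permutation and averaging the probe sets of each gene.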

Additional observations from a re-analysis of the deposited data

Results flagged for a closer look

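In 5 of 60 groups examined (12 probe sets, each in 2 sexes and 3 bulls), 1 array stood far from the rest, where chance gives about 1 in 20. The count is thus near what chance gives. Each array is counted in its sex and in its bull, so the groups are not independent. On IGFBP3 probe set 1, male bull 3 replicate 3 read 8.0, with the next male at 8.46 and the next array of bull 3 at 8.68. The gap was 0.548 of the range of the males and 0.816 of the range of bull 3. The same array was lowest in bull 3 on IGFBP3 probe set 2, at 7.17 with the next at 7.49, a gap of 0.71 of the range. It has the widest spread of all arrays and the lowest 5′ minus 3′ index (-1.268). Male bull 1 replicate 2, also of wide spread, read 7.14 on IGFBP3 probe set 2 with the next array of bull 1 at 7.39 (0.632 of the range). Male bull 1 replicate 1 read 8.49 on VEGFA probe set 1 with the next array of bull 1 at 8.94 (0.679 of the range). The part of array quality in these values was not tested.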

How the results depend on the processing

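Of 2932 member values recomputed under the alternatives, 2906 kept their side of the threshold, 10 lost a call, 16 gained one and none reversed. Over bulls, 3743 probe sets were called for sex, and 2044 without bull 2 and 2182 without bull 3. Of the members, 3 were called, and 1 without bull 2. Without 1 array the member calls ran from 0 to 2 for sex in bull 1, 0 to 1 in bull 2, 0 to 1 in bull 3, 1 to 2 over the bulls and 0 to 1 for bull 2 minus bull 1, each 1 as reported except the last at 0. Array weights raised the count of all probe sets called for sex to 1740 in bull 1, 1799 in bull 2 and 3144 in bull 3. Between bulls, 1534 probe sets were called, against 831 without moderation, 3777 with array weights, 358 with the 5′ to 3′ index and 670 to 2159 without 1 array. TGFB1 fell below the brightness limit of the brighter 50%, which left 0 member calls within each bull, over the bulls and for bull 3 minus bull 2. Array weights gave 3 member calls over the bulls (IGFBP2 and VEGFA probe set 2 added) and 2 each for bull 2 minus bull 1 and bull 3 minus bull 1, and repeated quantile normalization gave 1 for bull 3 minus bull 1. IGFBP7 passed for sex with bull as the replicate (-0.499 log2, adjusted p = 0.0232). That fit rests on 3 bull differences (-0.69, -0.78 and -0.03 log2), and its variance was moderated over all probe sets. Between arrays of a group, IGFBP7 had an SD larger than that of 99.9% of probe sets. FGF2 probe set 2 passed with array weights (0.267 log2, adjusted p = 0.0315).

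Over all groups, same-numbered arrays were no more alike than others. Of 45 same-numbered pairs between groups, 4 had deviations correlated above 0.1 (median 0), against 18 of 90 differently numbered pairs (median 0.01). Of 18 arrays, 2 correlated best with their own number. The pairs were pooled over bulls, so pairing within a single bull was not tested. With the number as a block 3527 probe sets were called for sex, FGF1 lost its call (adjusted p = 0.0589), ACVR2B lost its call between bulls (0.0525), and no member's call changed. Dim probe sets such as those of FGF2, KDR, FLT1, NRP1, TGFB3, TGFBR1, IGFBP1 and EGFR limit what a fold can show.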

Other observations

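Between bulls, 3 of the 72 measured pathway genes passed the test over all bulls, which called 6.44% of leading probe sets. EGFR, the receptor for epidermal growth factor, was lowest in bull 3, at -0.75 log2 against bull 2 (adjusted p = 0.00262) and -0.67 log2 against bull 1 (adjusted p = 0.00857). BMP4, a bone morphogenetic protein, was lowest there too, at -0.49 log2 against bull 1 (adjusted p = 0.0232) and -0.44 log2 against bull 2 (adjusted p = 0.0354). For ACVR2B, bull 2 exceeded bull 1 by 0.33 log2 (adjusted p = 0.0454). With the 5′ minus 3′ index as a covariate none of the 3 passed (adjusted p = 0.119 for EGFR, 0.443 for BMP4 and 0.0611 for ACVR2B), whereas TGFB1 did (0.0472). BMP4 also lost its call without female bull 3 replicate 1, female bull 3 replicate 3 or male bull 3 replicate 3 (0.0562 to 0.0637), without moderation of the variance (0.0642) and without the 4 arrays of widest spread (0.096). ACVR2B lost its call in 8 of 18 fits without 1 array (0.0537 to 0.077), without moderation (0.054) and without those 4 arrays (0.0903).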
